A study of Danio rerio with 3 samples.

Results

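The genes described here are 5 ventral homeobox genes of the zebrafish hindbrain, *nkx2.2a*, *nkx2.2b*, *nkx2.9*, *nkx6.1* and *nkx6.2*, found by their symbols among the 27282 genes of the deposited tables of counts, and all 5 had UMIs (unique molecular identifiers, each standing for 1 captured RNA molecule) at every stage. Single cells were taken from dissected hindbrain and the tissue around it, in embryos of the LondonAB strain with the genotype wt, at 16, 24 and 44 hours post fertilisation (hpf). Each stage was 1 library of about 40 pooled tissues, with growth at 25 °C for 16 hpf, 28.5 °C for 24 hpf and 25 °C for 44 hpf. Stage, library, sequencing run and growth temperature therefore cannot be told apart, and with no replicates neither stages nor groups of cells could be tested against each other.

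These genes encode homeodomain transcription factors of the NK families. In mouse and chick, Sonic hedgehog made by the notochord and the floor plate, the strip of cells at the ventral midline, switches on Nkx2.2 and the Nkx6 genes at different distances from the midline, and repression between these factors and others such as Pax6 and Dbx sharpens the borders of progenitor domains. The domain with Nkx2.2 and Nkx2.9 next to the floor plate of the mouse hindbrain gives rise to visceral motor neurons and later to serotonergic neurons. In zebrafish, *nkx2.2a* and *nkx2.2b* are both orthologues of Nkx2.2.

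The libraries held 2929, 2568 and 3529 cells at the stages in turn, with a median of 9844, 8176 and 2727 UMIs per cell. After removal of outlying cells and clustering with the 5 genes, *shha* and *phox2a* among the genes left out, 1771, 1671 and 2550 cells were hindbrain cells. Of these, 1528, 1131 and 882 were in clusters named progenitor-like from markers such as *sox3*, and 102, 266 and 1144 in clusters named differentiating from markers such as *elavl3*. At 16 hpf a cluster of 74 cells led by keratin genes such as *krt17* got no name. The remaining clusters included floor plate-like cells (29 at 16 hpf and 22 at 24 hpf) and intermediate cells with markers of both classes (237 at 24 hpf and 524 at 44 hpf). Among the differentiating cells, 59 at 24 hpf and 102 at 44 hpf formed a motor neuron-like cluster. Between 8 and 18 cell barcodes were shared by any 2 libraries.

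Levels are given as CPM, the sum of a gene's UMIs in a group of cells per 1000000 UMIs of that group. The intervals are 95% intervals and cover counting error only. In all hindbrain cells, *nkx6.1* kept its level to the last stage while the other 4 genes were lower at 44 hpf than at 24 hpf. The level of *nkx6.1* was 33.6, 65.7 and 61.3 CPM at 16, 24 and 44 hpf in turn. The level of *nkx6.2*, the paralogue of *nkx6.1*, was 19.5, 25.7 and 8.68 CPM at the same stages. The intervals of *nkx6.2* at 44 hpf (6.62 to 11.2 CPM) and at 16 hpf (17.5 to 21.7 CPM) did not overlap.

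The *nkx2* genes were at 13.5, 20.6 and 9.98 CPM for *nkx2.2a* at the stages in turn. The matching levels were 16.1, 19.0 and 7.95 CPM for *nkx2.2b*. For *nkx2.9*, another gene of the same ventral domain, they were 34.2, 32.1 and 12.9 CPM. Each of these 3 genes was thus lowest at 44 hpf. From 16 to 44 hpf the ratios were 0.741 (0.558 to 0.973) for *nkx2.2a*, 0.494 for *nkx2.2b*, 0.376 for *nkx2.9*, 1.82 (1.61 to 2.07) for *nkx6.1* and 0.444 for *nkx6.2*. At least 2 times lower at 44 hpf were 3 of 5 genes, beside 36.6% of all genes with at least 20 UMIs over both groups, and 0 of 5 were 2 times higher, beside 21.4%. The median ratio over all genes was 0.743, so the direction of the 3 lower genes is common among genes at large.

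Within progenitor-like cells the levels moved less. From 16 to 44 hpf only *nkx6.2* was 2 times lower, at 8.28 CPM against 20.2 CPM (ratio 0.409, 0.256 to 0.625), which makes 1 of 5 genes beside 32.0% of all genes. No member was 2 times higher there, beside 12.9% of all genes. The ratios of the other 4 genes lay between 0.837 for *nkx2.2b* and 1.25 for *nkx6.1*, with intervals that include 1, and the median over all genes was 0.741. The fall of the *nkx2* genes over all hindbrain cells went with a fall in the share of progenitor-like cells among hindbrain cells, from 86.3% at 16 hpf to 34.6% at 44 hpf. Within differentiating cells, *nkx2.2b* went from 60.1 to 0.726 CPM between these stages (ratio 0.0121, 0.00142 to 0.0458). The ratio there was 0.332 (0.162 to 0.686) for *nkx2.2a* and 0.418 (0.0708 to 2.86) for *nkx2.9*. The part of each of these changes in the fall was not tested.

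The share of hindbrain cells with any of the 5 genes was read after drawing 2000 UMIs from each cell, since the libraries differ in depth. It was 13.0% at 16 hpf (11.5 to 14.6), 13.8% at 24 hpf (12.2 to 15.6) and 9.55% at 44 hpf (8.28 to 10.9), with 602 cells of 44 hpf left out as too shallow. With all UMIs it was 25.2%, 23.3% and 11.3%, at median depths of 10043, 7301 and 2472 UMIs. Non-neural cells were taken as a guide to the level of RNA from other cells. At median depths of 8904, 9646 and 4021 UMIs, they had shares of 3.02%, 0.551% and 1.52% after the draw. With all UMIs their shares were 10.9%, 6.61% and 2.19%. The hindbrain shares were above these at every stage.

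The order of the genes by share after the draw began with *nkx6.1* at all stages, with 5.99%, 8.98% and 7.24% of hindbrain cells. At 44 hpf the other 4 genes lay between 1.03% for *nkx2.2b* and 1.44% for *nkx6.2*, with intervals that overlapped. At 16 hpf *nkx6.2* (4.4%, 3.50 to 5.47) and *nkx2.9* (4.12%, 3.24 to 5.16) came next, and the interval of *nkx2.9* still overlapped with those of *nkx2.2b* (2.77%, 2.05 to 3.64) and *nkx2.2a* (2.54%, 1.86 to 3.39). The UMIs were few in most positive cells. In the whole library of 16 hpf a single UMI was all that 69.4% of the *nkx6.2* cells had, while *nkx2.9* reached 41 UMIs in 1 cell of the library of 24 hpf.

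With all UMIs counted, the *nkx2* cells lay largely within the *nkx6* cells at 16 and 24 hpf, and less so at 44 hpf. The median depths of hindbrain cells were 10043, 7301 and 2472 UMIs, so a second gene can be missed more often at 44 hpf. The part of depth in the lower overlap at 44 hpf was not tested. Among hindbrain cells with a UMI of any *nkx2* gene, 71.1% at 16 hpf, 73.4% at 24 hpf and 51.2% at 44 hpf also had a UMI of an *nkx6* gene. Within differentiating cells these shares were 85.7%, 93.2% and 31.2%, the last from 5 of 16 cells. Among cells without an *nkx2* UMI the share with *nkx6* was 16.3%, 16.1% and 8.39%. In the other direction, only 34.4%, 29.9% and 16.9% of *nkx6* cells had an *nkx2* UMI. Most *nkx6* cells thus had no *nkx2* UMI. Although the 5 genes were kept out of the clustering, 1 progenitor-like cluster of 188 cells at 24 hpf had *nkx2.9*, *nkx2.2a*, *nkx2.2b* and *nkx6.2* as its leading genes, and 1 of 194 cells at 16 hpf had the 3 *nkx2* genes among them. At 24 hpf, 115 cells had *nkx6.1* alone of the 5 genes and 27 cells had all 5.

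**Figure D1:**
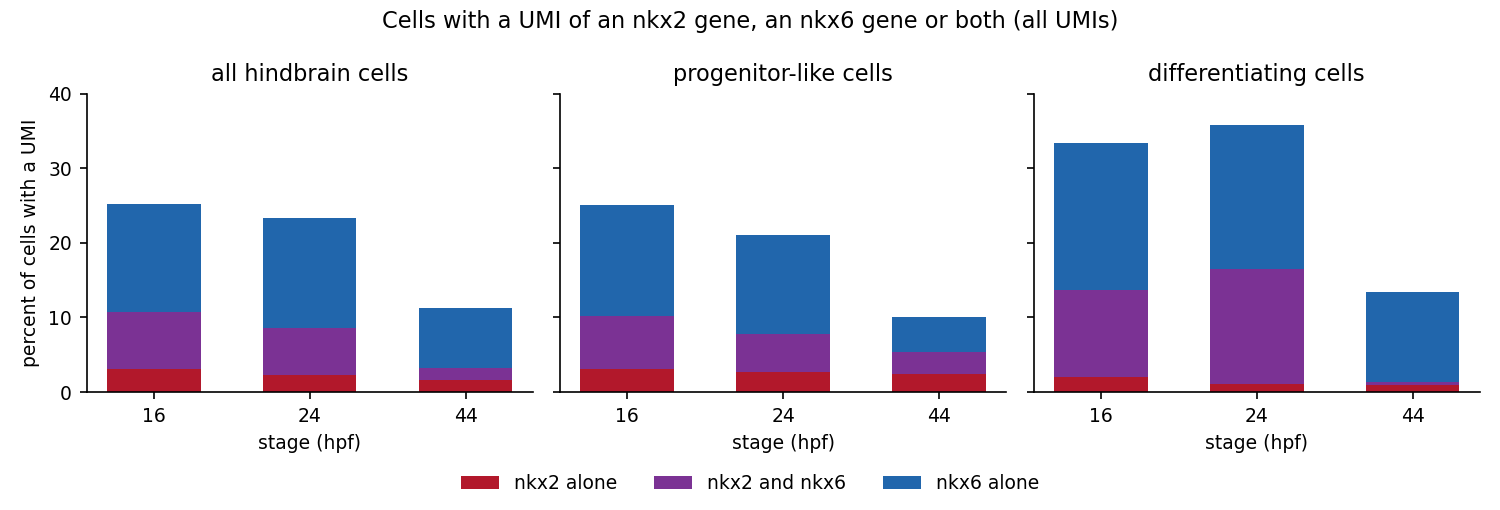
Percent of cells (vertical axis) with a UMI of an *nkx2* gene alone (red), of an *nkx2* and an *nkx6* gene (purple) or of an *nkx6* gene alone (blue), by stage (horizontal axis, hpf), for all hindbrain cells, progenitor-like cells and differentiating cells, with all UMIs of each cell counted. The purple and red parts of the differentiating cells nearly vanish at 44 hpf, where 16 of 1144 cells had an *nkx2* UMI.

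Every pair of the 5 genes was found in the same hindbrain cells more often than their separate frequencies give. For 10 of 10 pairs at each stage the number of cells with both genes was at least 2 times the number expected from independence. Pairs of a member with another gene were counted for only some of the 27282 genes, in 13545, 17015 and 22240 pairs at the stages in turn. Of these, 1.48%, 2.26% and 16.9% reached this, and their medians were 1.01, 1.11 and 1.09. The pairs of the 5 genes ranged from 3.19 to 9.88 times at 16 hpf and from 3.91 to 12.7 times at 24 hpf. At 44 hpf they ranged from 5.09 to 29.0 times. With the expected number summed over bins of depth the lowest pairs were still at 3.25, 3.68 and 4.32 times.

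The highest pair at every stage was that of the orthologues *nkx2.2a* and *nkx2.2b*. They shared 66 cells at 16 hpf where 6.68 were expected, 55 at 24 hpf where 4.32 were expected and 18 at 44 hpf where 0.621 were expected. The *nkx2.2a* cells held *nkx2.9* at 481 CPM at 16 hpf, against 9.55 CPM in the other hindbrain cells. Within the *nkx6* pair, 115, 131 and 25 cells had both genes, 3.19, 3.91 and 5.69 times the expected number. At 24 hpf, 66.8% of *nkx6.2* cells had *nkx6.1* and 45.8% of *nkx6.1* cells had *nkx6.2*.

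**Figure D2:**
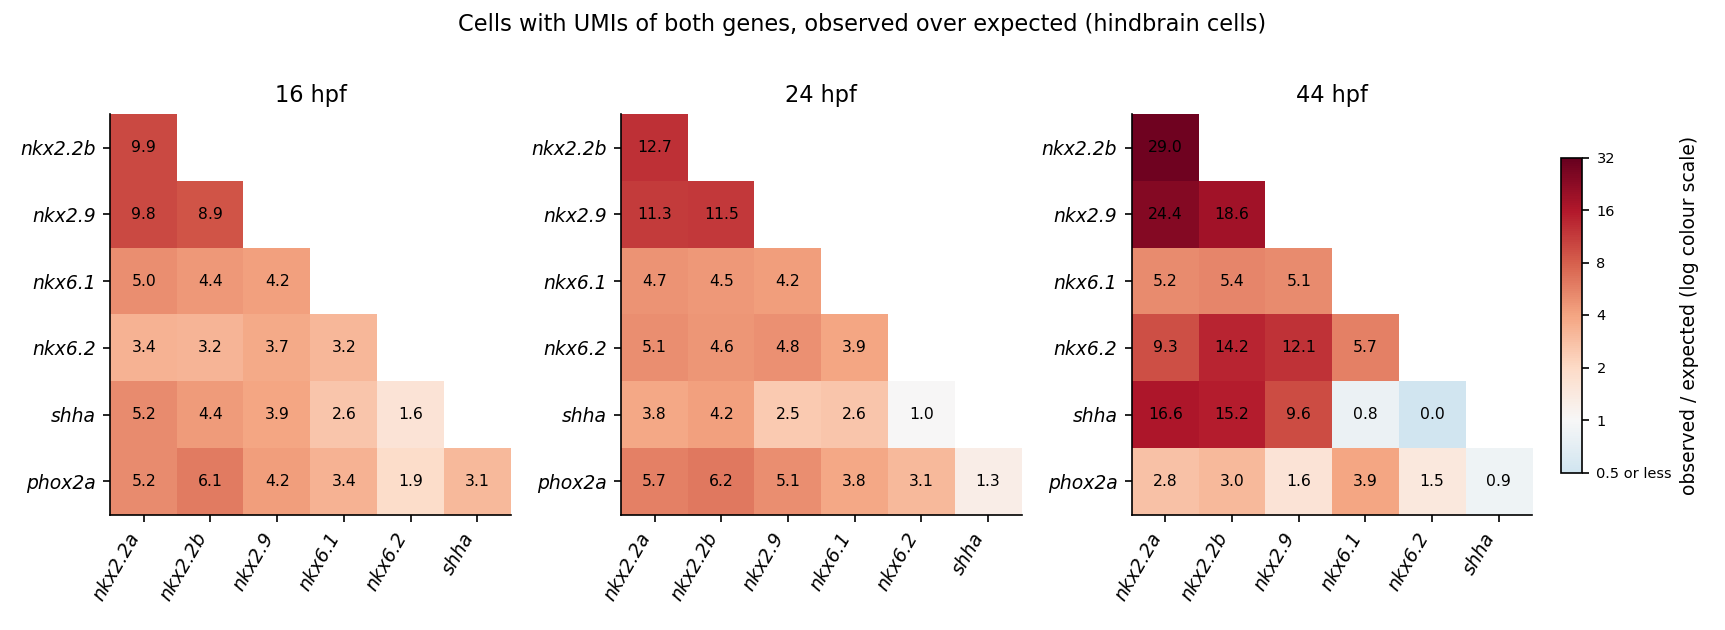
Ratio of the number of hindbrain cells with UMIs of both genes to the number expected if the genes were detected independently, for each pair of the 5 genes, *shha* and *phox2a*, at 16, 24 and 44 hpf (log colour scale). The 3 *nkx2* genes pair most strongly, up to 29.0 at 44 hpf. The squares of *shha* with *nkx2.2a* rest on 8 cells at 24 hpf and 4 cells at 44 hpf.

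The gene *shha* encodes the Sonic hedgehog ligand. Its UMIs lay mostly in the floor plate-like cells at 16 hpf (1701 CPM) and 24 hpf (2516 CPM). The clustering of 44 hpf alone gave no floor plate-like cluster, and 60 of 61 *shha* UMIs of hindbrain cells there were in progenitor-like cells. In the clustering of all stages together, 6 cells of 44 hpf were in a cluster named floor plate. The progenitor-like cells of 44 hpf can thus include floor plate cells. Cells with *shha* also had *nkx2.2a* more often than expected, 5.21 times at 16 hpf (27 cells), 3.79 times at 24 hpf (8 cells) and 16.6 times at 44 hpf (4 cells). For *nkx2.2b* the ratios were 4.41, 4.16 and 15.2, and for *nkx2.9* they were 3.94, 2.51 and 9.59. For the *nkx6* genes the ratios with *shha* were 2.58, 2.64 and 0.813 (1 cell) for *nkx6.1* and 1.61, 1.01 and 0 for *nkx6.2*, and their difference from those of the *nkx2* genes was not tested. After the draw of 2000 UMIs, *shha* was found in 1.56% of hindbrain cells and 1.93% of non-neural cells at 24 hpf, and in 0.513% and 0.606% at 44 hpf. The share over all hindbrain cells was thus not above that of non-neural cells at these stages, while 348 of the 373 *shha* UMIs of hindbrain cells at 24 hpf lay in the 22 floor plate-like cells. Non-neural cells held 31 *shha* UMIs in 19 cells at 24 hpf and 19 in 3 cells at 44 hpf, so some of them may express it. The ratios at 24 and 44 hpf rest on few cells.

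Floor plate-like cells had higher levels of some of the 5 genes than progenitor-like cells. At 16 hpf *nkx2.2a* was at 83.3 CPM in them and 12.5 CPM in progenitor-like cells (ratio 6.67, 3.93 to 10.7). The ratio was 5.45 (3.72 to 7.73) for *nkx6.1* and 3.86 (2.60 to 5.54) for *nkx2.9*. For *nkx2.2b* it was 2.23 (0.887 to 4.68) and for *nkx6.2* 1.08 (0.350 to 2.56). At 24 hpf *nkx2.2a* was higher there than in progenitor-like cells (65.1 CPM, ratio 3.42, 1.54 to 6.63), from 9 UMIs in 4 cells. So was *nkx6.1* (123 CPM, ratio 2.94, 1.70 to 4.77). The gene *nkx2.9* had 3 UMIs and *nkx6.2* had 1 UMI in the 22 cells. Their ratios, 0.594 (0.122 to 1.75) and 0.286 (0.00721 to 1.61), had intervals that include 1. The same held for *nkx2.2b*, at 1.86 (0.499 to 4.85).

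The gene *phox2a* encodes a homeodomain factor of cranial motor neurons and noradrenergic neurons. In hindbrain cells its level was 20.2, 52.6 and 124 CPM at the stages in turn. It was found with *nkx2.2b* in 6.11, 6.22 and 3.04 times the expected number of cells and with *nkx2.2a* in 5.21, 5.73 and 2.76 times. The ratios with *nkx6.1* were 3.36, 3.83 and 3.90, while those with the *nkx2* genes were lower at 44 hpf than before. Such a ratio depends on how often each gene was detected, which differed between stages. The strength of a pair was therefore not compared between stages. Of the cells with *phox2a*, 52.2%, 65.6% and 34.3% had *nkx6.1*. For *nkx2.9* the ratios were 4.23, 5.07 and 1.60 (5 cells), and for *nkx6.2* they were 1.87, 3.07 and 1.46 (6 cells). After the draw *phox2a* was found in 1.75%, 4.07% and 5.80% of hindbrain cells, against 0.890%, 1.38% and 0.606% of non-neural cells. The non-neural cells of 24 hpf held 77 *phox2a* UMIs in 10 cells, so some of them may express it.

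At 44 hpf the *phox2a* cells fell into groups with and without the *nkx6* genes. The motor neuron-like cluster had 86 cells with *phox2a*, of which 57 also had an *nkx6* UMI and 4 an *nkx2* UMI. A second differentiating cluster, of 95 cells led by *tlx2*, *pou4f2* and *lmx1bb*, had *phox2a* at 537 CPM in 31 cells and not a single UMI of the 5 genes, which allows up to 12.1 CPM for each. At 16 hpf, before a motor neuron-like cluster was found, the 102 differentiating cells held *phox2a* at 318 CPM in 30 cells, 16 of them with an *nkx6* UMI and 11 with an *nkx2* UMI.

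Progenitor-like and differentiating cells were then compared within each stage. The clearest difference was that of *nkx6.1*, which was higher in differentiating cells at all 3 stages. Its level was 131 CPM in differentiating cells and 27.4 CPM in progenitor-like cells at 16 hpf, a ratio of progenitor-like to differentiating cells of 0.209 (0.170 to 0.260). At 24 hpf the levels were 191 and 41.8 CPM (ratio 0.219, 0.189 to 0.252) and at 44 hpf 102 and 34.2 CPM (ratio 0.335, 0.263 to 0.424). Under all 21 alternative settings over the 3 stages, the ratio of *nkx6.1* was below 1, between 0.142 and 0.592. The share of cells with *nkx6.1* after the draw was 14.7%, 22.9% and 10.5% of differentiating cells and 5.43%, 5.92% and 4.84% of progenitor-like cells (with all UMIs 28.4%, 32.3% and 11.6%, and 14.7%, 13.8% and 6.35%), against 1.25%, 0.275% and 1.21% of non-neural cells.

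The gene *nkx2.9* had the opposite distribution at the first and the last stage. At 16 hpf it was at 35.2 CPM in progenitor-like cells and had 3 UMIs in the differentiating cells, a ratio of 10.2 (3.46 to 49.4). At 44 hpf it was at 29.5 CPM in progenitor-like cells and had 4 UMIs in 1144 differentiating cells, a ratio of 20.3 (7.64 to 76.4). The ratio was above 1 under all alternatives at both stages, from 2.28 to 18.1 at 16 hpf and from 1.38 to 45.8 at 44 hpf. At 24 hpf the levels were 36.5 and 34.8 CPM.

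The gene *nkx2.2b* changed sides between stages. At 16 hpf *nkx2.2b* was higher in differentiating cells (60.1 CPM against 13.7 CPM, ratio 0.229, 0.168 to 0.316), and the ratio of *nkx2.2a* was 0.635 (0.386 to 1.11). At 24 hpf both were higher in differentiating cells, at ratios of 0.300 for *nkx2.2b* and 0.438 for *nkx2.2a*. At 44 hpf *nkx2.2b* had 32 UMIs in progenitor-like cells and 2 UMIs in differentiating cells, a ratio of 15.9 (4.05 to 137). Its ratio of progenitor-like to intermediate cells was 8.10 (2.72 to 39.7) at 24 hpf and 0.757 (0.423 to 1.38) at 44 hpf. No intermediate class was formed at 16 hpf, so the classes compared are not alike between stages. For *nkx2.2a* the ratio at 44 hpf was 1.98 (1.1 to 3.71), but it lay between 0.175 and 2.5 over the alternatives, so that no direction is given for it. The levels of *nkx6.2* differed less, with ratios of 1.34, 0.738 and 0.814.

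With a ratio of at least 2, 1 of 5 genes was higher in progenitor-like cells at 16 hpf beside 15.4% of all genes, 0 of 5 at 24 hpf beside 22.2%, and 2 of 5 at 44 hpf beside 21.2%. Higher in differentiating cells were 2 of 5 genes at 16 hpf beside 13.6%, 3 of 5 at 24 hpf beside 24.6%, and 1 of 5 at 44 hpf beside 26.1%. The medians over all genes were 0.998, 0.962 and 0.901. The counts of 24 hpf depend on the motor neuron-like cluster. Without it, 4 of 5 genes were higher in progenitor-like cells and 0 of 5 in differentiating cells. The share over all genes was not computed without this cluster.

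**Figure D3:**
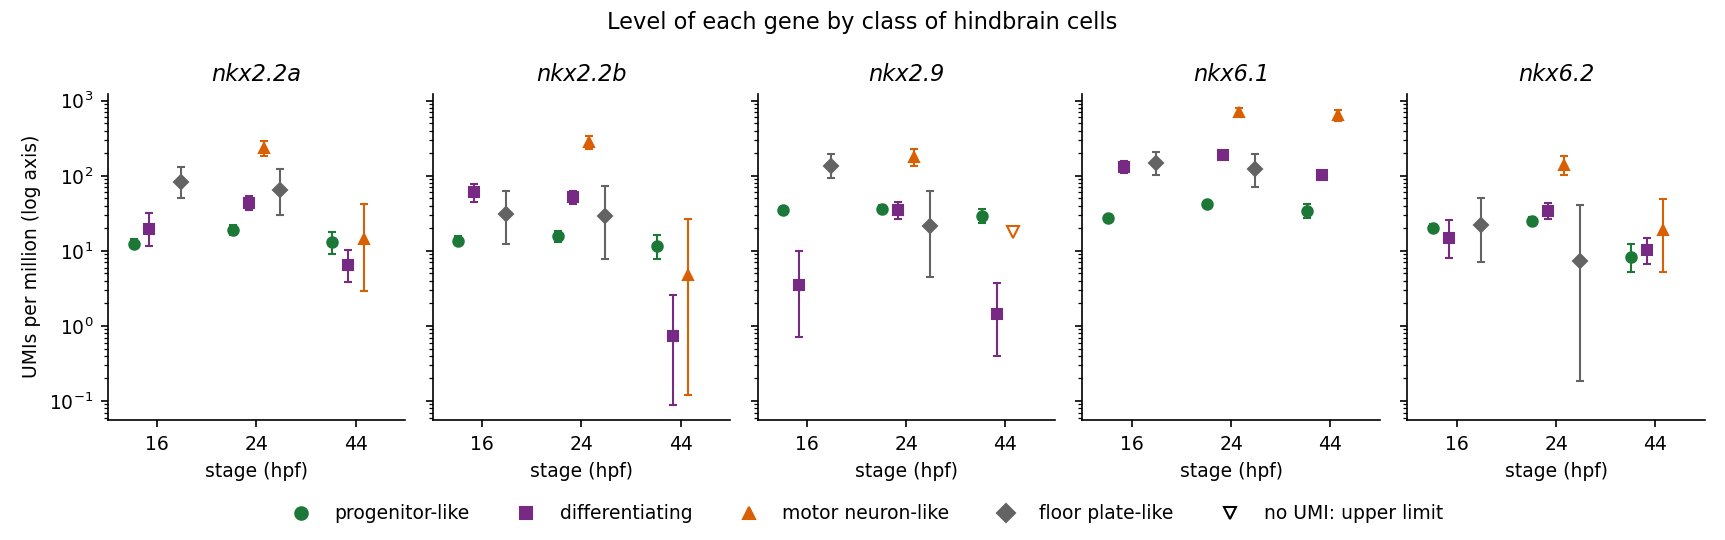
Level of each of the 5 genes (CPM, log axis) at 16, 24 and 44 hpf in progenitor-like (green circles), differentiating (purple squares), motor neuron-like (orange triangles) and floor plate-like cells (grey diamonds), with exact 95% Poisson intervals. The motor neuron-like cells, which are part of the differentiating cells, have *nkx6.1* at 698 CPM at 24 hpf and 640.0 CPM at 44 hpf, while their *nkx2* levels are high at 24 hpf alone.

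Nearly all *nkx2* UMIs of differentiating cells at 24 hpf were in the 59 motor neuron-like cells, 81 of 81 for *nkx2.2a*, 96 of 97 for *nkx2.2b* and 61 of 65 for *nkx2.9*. The levels in these cells were 235 CPM for *nkx2.2a*, 278 CPM for *nkx2.2b* and 177 CPM for *nkx2.9*. The *nkx6* genes were also high in them, at 698 CPM for *nkx6.1* and 139 CPM for *nkx6.2*, with *phox2a* at 1567 CPM. The other differentiating cells of 24 hpf held no UMI of *nkx2.2a* and 1 of *nkx2.2b*. With 3 UMIs over the group taken as the floor, progenitor-like cells were 9.65-fold higher in *nkx2.2a* than these cells. The interval of this ratio starts at 7.77. Progenitor-like cells were 13.9 times (5.38 to 51.3) higher than these cells in *nkx2.9* and at 0.548 of their level (0.445 to 0.679) in *nkx6.1*. At 44 hpf the motor neuron-like cells still had *nkx6.1* at 640.0 CPM, 134 UMIs, but 3 UMIs of *nkx2.2a*, 1 of *nkx2.2b*, 0 of *nkx2.9*, which allows up to 14.3 CPM, and 4 of *nkx6.2*.

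The motor neuron-like name at 24 hpf rests on 4 markers, among them *isl1*, *isl2a* and *tbx3a*, which encode transcription factors of motor neurons, while *chata* and *mnx1* were at 0 in the cluster and 6 floor plate markers were also higher there than elsewhere. A split of the cluster by *nkx2* UMIs was chosen after its values were seen. Of its cells, 39 had an *nkx2* UMI and 20 had none, with medians of 5573 and 4890 UMIs. The level of *nkx6.1* was 710.4 and 671 CPM in them (ratio 1.06, 0.799 to 1.41). In the *nkx2* cells, *isl1* was at 0.340 of its level in the others (0.235 to 0.490) and *phox2a* at 0.539 (0.454 to 0.641). The gene *elavl4*, a neuronal RNA-binding protein that appears late in differentiation, had 1 UMI in the *nkx2* cells and 127 UMIs in the others, and *tbx3a* had 0 and 38 UMIs. A UMI of *sox3*, the progenitor marker, was found in 39 of 39 *nkx2* cells and in 10 of 20 of the others. The marker of differentiating cells *elavl3* had a UMI in 38 of 39 *nkx2* cells and in 20 of 20 of the others. Its levels in them were 2085 and 2649 CPM (ratio 0.787, 0.679 to 0.913).

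The class of this cluster was not stable. With a resolution 1.5 times higher, 39 of its 39 *nkx2* cells and 19 of the 20 others fell in clusters named intermediate, and with the left-out genes used for clustering, 39 and 15 fell in a cluster named floor plate-like. Under these settings *nkx2.2a* and *nkx2.2b* were higher in progenitor-like than in differentiating cells at 24 hpf. With the resolution halved, all 39 and all 20 cells stayed in clusters named differentiating. With each cell classed on its own by *sox* and *elavl* UMIs, 27 of 39 and 20 of 20 were differentiating, and 4 and 0 progenitor-like. The ratio of each of these genes stayed on the same side of 1 in 4 of 7 alternatives. The direction for these genes at 24 hpf is thus that of 1 cluster.

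Another set of cells with *nkx6.1* was the V2-like one, named from genes of V2 interneurons such as *gata3* and *tal1*. They had *nkx6.1* at 230.4 CPM at 24 hpf (38 cells) and 125 CPM at 44 hpf (210 cells, of which 40 were in an intermediate cluster). At 24 hpf these cells had 0 UMIs of *nkx2.2a* and of *nkx2.2b*, which allows up to 9.60 CPM, and 1 of *nkx2.9*. At 44 hpf they had 14, 2 and 1, which for *nkx2.2a* was 23.1 CPM (12.6 to 38.7), beside 13.0 CPM in progenitor-like cells. Intermediate cells were low in *nkx2* genes at 24 hpf, with 2, 3 and 7 UMIs of *nkx2.2a*, *nkx2.2b* and *nkx2.9*, and had *nkx6.1* at 66.7 CPM. At 44 hpf intermediate cells had *nkx2.2a* at 10.9 CPM and *nkx2.2b* at 15.2 CPM, beside 13.0 and 11.5 CPM in progenitor-like cells, and 3 UMIs of *nkx2.9*. Other clusters also had *nkx6* UMIs, here summed over *nkx6.1* and *nkx6.2*. At 44 hpf a differentiating cluster of 227 cells led by *otpa*, *eng1b* and *otpb* was at 153 CPM, beside 132 CPM in the 170 differentiating V2-like cells. The remaining differentiating clusters of 44 hpf, apart from the motor neuron-like one, were at 0 to 41.2 CPM. At 24 hpf the intermediate clusters, of 140 and 97 cells, were at 148 and 10.4 CPM.

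To compare what else the cells of each set expressed, progenitor-like and floor plate-like cells were divided into those with an *nkx2* UMI (170, 93 and 48 cells at the stages in turn), those with *nkx6* alone (229, 155 and 41) and those with neither (1158, 905 and 793). The median depths of the 3 sets were 9131, 10749 and 10336 UMIs at 16 hpf, 9340, 9162 and 7620 UMIs at 24 hpf, and 3295, 4031 and 2826 UMIs at 44 hpf. Floor plate-like cells made up 15, 2 and 12 cells of the 3 sets in turn at 16 hpf, and 5, 5 and 12 cells at 24 hpf. In the clustering of 44 hpf alone no cluster had this name. The 6 cells of 44 hpf in the floor plate cluster of all stages were not counted in the sets. The comparisons with neither share that group of cells. All genes with at least 20 UMIs over both groups entered each comparison, and a gene is counted as higher or lower at a ratio of at least 2. Counting error alone can take genes with few UMIs past this ratio, above all at 44 hpf, so that counts at this stage are a description.

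In *nkx2* cells the genes of the floor plate were higher and the dorsal genes lower than in cells with neither. At 16 hpf, 10 of 10 floor plate genes were higher beside 5.79% of all genes, with a median ratio of 11.2 beside 1.03 over all genes. At 24 hpf it was 10 of 10 beside 5.07% (median 6.43 beside 1.03), and at 44 hpf 6 of 8 beside 11.0% (median 8.21 beside 1.08). The secreted guidance factor *ntn1b* (114 against 3.18 CPM) and the forkhead gene *foxa* (135 against 3.35 CPM) had the largest ratios at 16 hpf, 35.8 and 40.4. With the floor plate-like cells left out, 9 of 9 floor plate genes at 16 hpf and 6 of 7 at 24 hpf were higher. The share over all genes was not computed with these cells left out. The ratio of *shha*, 11.8 at 16 hpf with these cells, was then 5.41.

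Of the dorsal genes, among them the *zic* genes, *pax7a* and *atoh1a*, 13 of 16 were lower in *nkx2* cells at 16 hpf beside 4.78% of all genes, 15 of 17 at 24 hpf beside 6.73% and 16 of 17 at 44 hpf beside 10.7%. Their median ratios were 0.301, 0.261 and 0.150. The proneural gene *atoh1a* was at 9.43 CPM in *nkx2* cells of 16 hpf and at 59.0 CPM in cells with neither. The intermediate genes were lower in 6 of 11, 5 of 13 and 10 of 13 cases, with median ratios of 0.444, 0.560 and 0.272. One of them, *dbx1a*, a homeobox gene of interneuron progenitors, was at 22.6 against 73.0 CPM at 16 hpf. The bHLH gene *olig2*, needed for motor neurons and oligodendrocytes, went the other way, as did *prdm8* at 44 hpf, with 64 UMIs in *nkx2* cells and 6 UMIs in cells with neither at 24 hpf (ratio 89.2, 38.8 to 252) and a ratio of 32.9 (15.9 to 71.9) at 44 hpf.

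Of the genes of the Hedgehog pathway, 3 of 13 were higher in *nkx2* cells at each stage, beside 5.79%, 5.07% and 11.0% of all genes, and 3, 5 and 5 of 13 were lower, beside 4.78%, 6.73% and 10.7%, with median ratios of 0.758, 0.724 and 0.667. With 2 UMIs needed for a cell to count, 1 of 13 was higher at 24 hpf and 1 of 13 at 44 hpf, and without the floor plate-like cells 1 of 11 at 24 hpf. For these settings the share over all genes was not computed. The higher genes at 16 and 24 hpf were the ligands *shha* and *shhb* and *hhip*, which binds the ligand. The gene *hhip* was at 55.3 against 18.9 CPM at 16 hpf and 31.0 against 5.82 CPM at 24 hpf. At 44 hpf *hhip*, *shha* and *gli1* were past a ratio of 2, from 5 and 7 UMIs in *nkx2* cells for *hhip* and *shha*, and *shha* was at 1.97 with 2 UMIs needed and at 1.92 with groups from 2000 drawn UMIs. Lower at 16 hpf were *boc*, a co-receptor of the ligand (85.5 against 200.0 CPM), the transcription factor *gli2b* (20.7 against 66.4 CPM) and *scube2*, which aids release of the ligand. Levels of *smo*, the transducer of the signal, were 88.0 and 72.9 CPM at 16 hpf. In cells with *nkx6* alone, 0, 4 and 1 of 13 were higher than in cells with neither, beside 1.98%, 3.74% and 6.80% of all genes. The 4 genes at 24 hpf were *gli1*, *hhip*, *shha* and *shhb*. Set directly against cells with *nkx6* alone, *nkx2* cells had 2 of 13 higher at 16 hpf, *shha* and *shhb*, beside 4.28% of all genes. At 24 hpf 0 of 13 were higher in *nkx2* cells, beside 2.4% of all genes. Lower there were *gli1* and *gli2b*, beside 3.45% of all genes.

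Only 3 of the 15 motor neuron factors listed in the tables had enough UMIs in these cells at each stage. Of these, 3, 2 and 2 were higher in *nkx2* cells at the stages in turn, beside 5.79%, 5.07% and 11.0% of all genes, and 1 was lower at 24 hpf, *isl2b* with 1 UMI in *nkx2* cells. Higher at each stage was *phox2a*, with ratios of 19.4 (11.2 to 34.8), 16.7 (8.91 to 32.6) and 2.63 (1.14 to 5.38). The last of these was 1.81 with 2 UMIs needed and 1.17 with groups from 2000 drawn UMIs, and 6.41 without the cells of the highest doublet scores. A UMI of *phox2a* was found in 18.2%, 21.5% and 14.6% of *nkx2* cells, in 3.93%, 5.16% and 9.76% of cells with *nkx6* alone and in 1.64%, 1.66% and 2.65% of cells with neither, with all UMIs counted. A UMI of *elavl3* was found in 42.9%, 57.0% and 31.2% of *nkx2* cells and in 24.1%, 43.5% and 42.6% of cells with neither, and its part in these ratios was not tested. Among other genes with large ratios were *foxj1a*, a factor of ciliated cells, at 16 hpf (18.1), *sulf2b*, a sulfatase that acts on heparan sulfate, at 24 hpf (28.5), and *stox1* at 44 hpf (36.9). Low in *nkx2* cells were *lbx1b* at 16 hpf (0.227), *myca* at 24 hpf (0.177) and the growth factor genes *mdka* (0.10) and *mdkb* (0.0985) at 44 hpf.

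**Figure D4:**
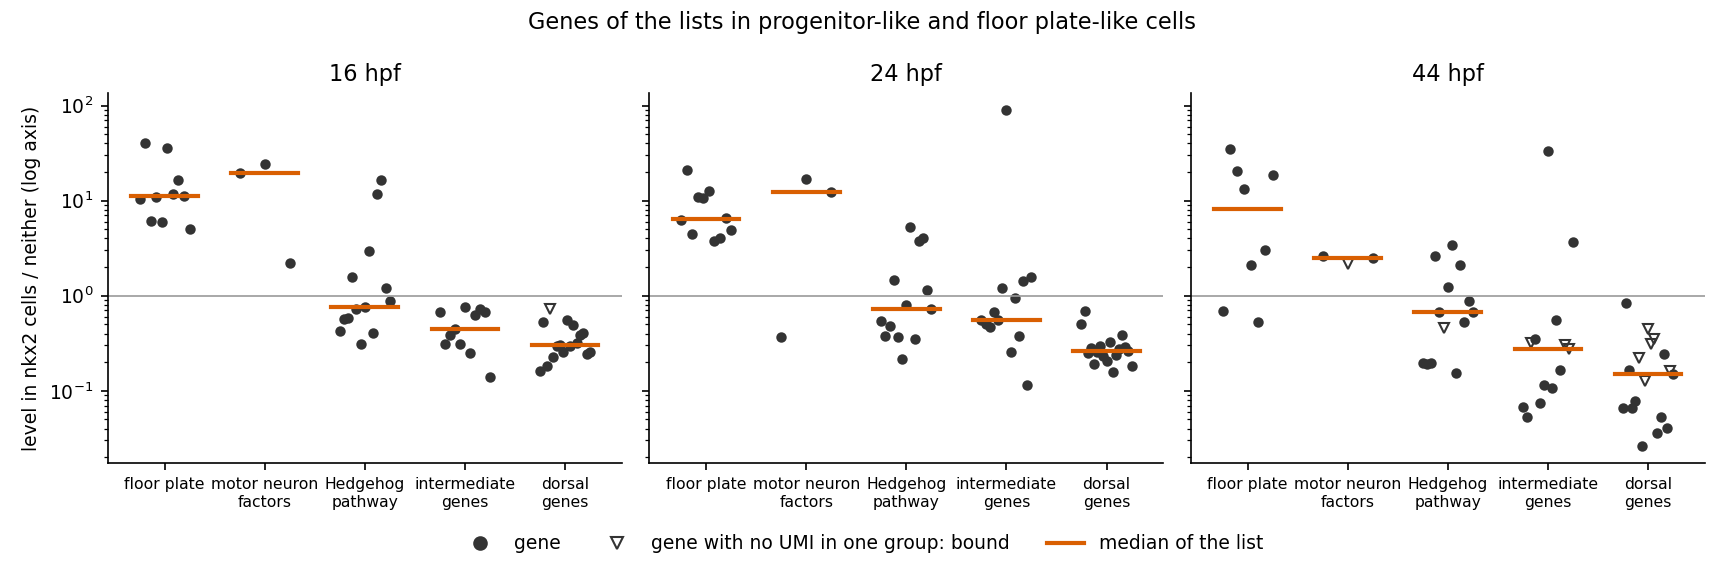
Ratio of the level in *nkx2* cells to that in cells with neither *nkx2* nor *nkx6* (log axis) for the genes of 5 lists, in progenitor-like and floor plate-like cells at 16, 24 and 44 hpf, with 1 point a gene, open triangles for bounds and an orange bar for the median of the list. At 16 and 24 hpf the floor plate genes lie above 3 and the dorsal genes below 1, and the isolated intermediate gene at the top at 24 and 44 hpf is *olig2*.

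Cells with *nkx6* alone also had low dorsal genes. Against cells with neither, 16 of 16 dorsal genes were lower at 16 hpf beside 3.38% of all genes, 17 of 17 at 24 hpf beside 4.1%, and 16 of 17 at 44 hpf beside 10.1%, with median ratios of 0.337, 0.223 and 0.206 beside 1.02, 1.06 and 1.04 over all genes. Higher floor plate genes were 3 of 10 at 16 hpf beside 1.98% of all genes, and 9 of 10 at 24 hpf beside 3.74%. At 44 hpf 1 of 6 was higher beside 6.80%. The medians were 1.03, 3.34 and 0.707. At 24 hpf floor plate-like cells were 5 of 155 cells with *nkx6* alone and 12 of 905 cells with neither. The part of floor plate-like cells in these counts was not tested. At 16 hpf *phox2a* was at 3.64 CPM in cells with *nkx6* alone and 1.59 CPM in cells with neither (ratio 2.29, 0.913 to 5.31). Some genes high in *nkx2* cells were also high in cells with *nkx6* alone. Against cells with neither, the ratio of *sulf2b* was 17.8 (13.2 to 24.3) at 24 hpf. At 44 hpf that of *olig2* was 44.1 (22.3 to 93.6), and *prdm8* was past 2. Against cells with *nkx6* alone, *olig2* was higher in *nkx2* cells at 24 hpf, and not past a ratio of 2 at 44 hpf.

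Set against each other directly, *nkx2* cells and cells with *nkx6* alone differed in floor plate genes. At 16 hpf 9 of 10 were higher in *nkx2* cells beside 4.28% of all genes, and at 24 hpf 6 of 10 beside 2.4%. Floor plate-like cells, named from floor plate markers, were 15 of 170 *nkx2* cells and 2 of 229 cells with *nkx6* alone at 16 hpf. At 24 hpf they were 5 of 93 and 5 of 155. Their part in this difference was not tested. Of the dorsal genes, 1 of 15 was lower in *nkx2* cells at 16 hpf beside 2.28% of all genes, and 0 of 15 at 24 hpf beside 3.45%. The intermediate genes were lower in *nkx2* cells in 6 of 10 cases at 16 hpf and 4 of 13 at 24 hpf. One of them, *neurog1*, a proneural gene, was at 77.9 against 195 CPM at 16 hpf and at 176 against 507 CPM at 24 hpf. The gene *pax6a* was at 70.4 against 141 CPM at 16 hpf. At 24 hpf *phox2a* was 6.86 times (3.09 to 17.2) higher in *nkx2* cells than in cells with *nkx6* alone.

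The levels of the 5 genes at 16 hpf also differed along the hindbrain. Progenitor-like cells were assigned to the midbrain-hindbrain boundary and rhombomere 1 (r1) or to r2 to r7 by UMIs of segment genes such as *egr2b* for r3 and *hoxb1a* for r4, with 155 of 1528 cells in no segment and 182 in more than 1. The *nkx2* genes varied most. The level of *nkx2.9* was 81.1 CPM at the boundary and r1 (61.6 to 105), 66.5 CPM in r4 (50.1 to 86.6) and 57.3 CPM in r7 (47.9 to 68.0). In r3 it was 7.93 CPM (4.53 to 12.9) and in r5 8.54 CPM (5.35 to 12.9), with r2 at 29.7 and r6 at 21.2 CPM. The intervals of the boundary with r1, of r4 and of r7 did not overlap with those of the other segments, and r4 lies between the low r3 and r5. The share of cells with a UMI of *nkx2.9* was 8.68% in r7 and 8.47% in r2, and after the draw of 2000 UMIs 5.48% (2.86 to 9.38) and 4.52% (1.97 to 8.71), intervals that overlapped.

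A UMI count of 36 put *nkx2.2a* at 43.5 CPM in r4 (30.5 to 60.3), from 7 of 80 cells, against 1.98 CPM in r3 (0.540 to 5.07), from 4 of 200 cells. The gene *nkx2.2b* was also highest in r4, at 31.5 CPM (20.5 to 46.1), with the boundary and r1 at 25.2 CPM within this interval, and lowest in r6, at 1.97 CPM. The *nkx6* genes varied less, from 20.2 CPM in r6 to 43.5 CPM in r4 for *nkx6.1* and from 13.6 CPM in r7 to 29.4 CPM at the boundary and r1 for *nkx6.2*. After the draw *nkx2.9* was found in 10.0% of r4 cells (4.42 to 18.8) and 2.0% of r3 cells (0.548 to 5.04), intervals that overlapped, with 17.5% and 3.50% when all UMIs were counted. How many ventral cells of each segment were sampled was not tested.

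**Figure D5:**
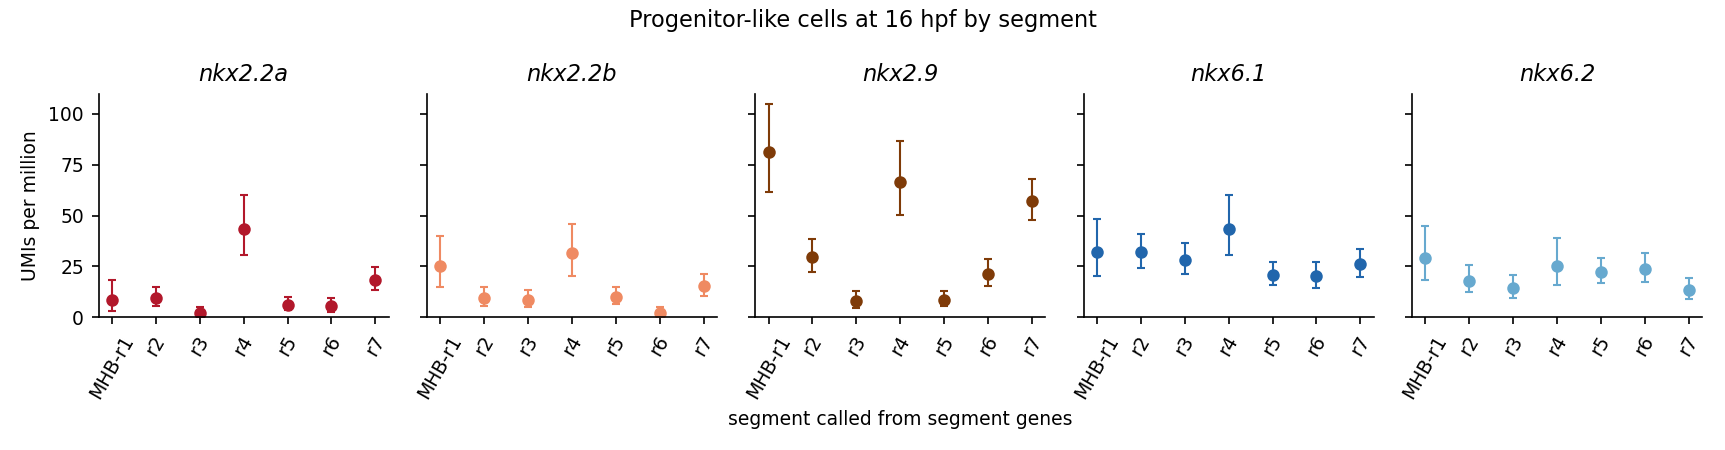
Level of each of the 5 genes (CPM) in progenitor-like cells of 16 hpf by segment, from the midbrain-hindbrain boundary with r1 (MHB-r1) to r7, with exact 95% Poisson intervals. The *nkx2.9* points of MHB-r1, r4 and r7 lie well above those of r3 and r5, while the *nkx6.1* and *nkx6.2* points lie close together.

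Over the 43 clusters of hindbrain cells of all stages, which share depth and library within a stage, the genes with the most similar pattern were sought by Pearson's r of log2(CPM + 5), as a description. For *nkx2.2a* they were *nkx2.2b* (0.90), *foxa* (0.86), *ntn1b* (0.83), *nkx2.9* (0.81) and *stox1* (0.76). For *nkx2.2b* they were *nkx2.2a* (0.90), *nkx2.9* (0.82), *foxa* (0.79), *ntn1b* (0.74) and *fzd8a* (0.72). For *nkx2.9* they were *nkx2.2b* (0.82), *nkx2.2a* (0.81), *foxb1b* (0.75), *foxa* (0.73) and *fzd8a* (0.73). Each of these lists was thus led by another *nkx2* gene, with *foxa* and *ntn1b* ahead of *nkx2.9* in that of *nkx2.2a*.

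Apart from *fzd8a* and *nkx2.2a*, the lists of the *nkx6* genes held other names. For *nkx6.1* they were *nkx6.2* (0.80), *sulf2b* (0.75), *h3f3b.1.2* (0.70), *fzd8a* (0.68) and *nkx2.2a* (0.64). For *nkx6.2* they were *fzd8a* (0.83), *nkx6.1* (0.80), *sulf2b* (0.79), *sfrp1a* (0.71) and *shisa3* (0.70), of which *fzd8a* encodes a Wnt receptor and *sfrp1a* a secreted Wnt antagonist. With *shha*, r was 0.61 for *nkx2.2a* and 0.24 for *nkx6.2*. With *phox2a* it was highest for *nkx6.1* (0.41) and lowest for *nkx2.9* (0.05).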

How the data were processed

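The deposited tables hold counts of UMIs per gene and cell, made by the authors with Cell Ranger on GRCz10 per the submitters' processing notes (version not given in the sources used here), without normalisation. The aggregated table of all stages was not used. Cells beyond 3 median absolute deviations were removed (204, 231 and 432 cells). Clustering used Seurat 5.3.0 (R 4.3.3, Matrix 1.6.5) with 2000 variable genes, 30 components, 20 neighbours, resolution 0.8 for all cells and 0.7, 1.2 and 1.0 for hindbrain cells of each stage. In all, 9 genes, among them the 5 members, *shha* and *phox2a*, were left out of the variable genes. Some genes of the lists are not reported here by name. Clusters were named from marker lists, needing 3 markers each found in 10% of cells and 1.5 times higher than elsewhere, or 2 times for tissues. For progenitor markers of the stage clusters, the cells compared with were those of differentiating clusters alone. Neural clusters were named against the named non-neural clusters. These limits were set after seeing the clusters. Scrublet in Scanpy 1.11.5 called 12, 10 and 1 cells doublets, which was taken as not having worked, and no cells were removed as doublets. Other steps used Python 3.11.15, NumPy 2.4.6, SciPy 1.17.1, pandas 2.3.3 and matplotlib 3.10.9. Intervals are exact Poisson for CPM, Clopper-Pearson for shares and exact conditional binomial for ratios. A count of 0 was read as up to 3 UMIs.

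Named genes are the 5 members, *shha*, *phox2a*, the 5 genes most like each member with at least 50 UMIs, and the 5 with the largest ratio in each direction between *nkx2* cells and neither, at 50 CPM or more in the higher group and 5 UMIs or more in the lower, of which some are printed, with examples of the lists. The members and lists were chosen with earlier results of these data known. The ratio calculation was tested on simulated data, with changed genes taken from those expected to have at least 20 UMIs in the *nkx2* cells alone. It called nearly all of these, which does not carry over to genes with fewer UMIs there. Counting error also took unchanged genes past a ratio of 2, most often at 44 hpf. The share at 44 hpf was close to that called there in the real data. The alternatives were other filters, resolutions, draws, UMI limits, correlations and ways to name classes, and leaving out motor neuron-like, floor plate-like or other clusters was added after seeing the data.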

Additional observations from a re-analysis of the deposited data

Results flagged for a closer look

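The ratio of progenitor-like to differentiating cells pointed in opposite directions at different stages for the 2 orthologues of Nkx2.2, with counting intervals that exclude 1 on both sides. For *nkx2.2b* it was 0.229 at 16 hpf and 0.300 at 24 hpf, but 15.9 at 44 hpf. For *nkx2.2a* it was 0.438 at 24 hpf and 1.98 at 44 hpf. The difference between stages was not tested, since each stage is 1 library. No intermediate class was formed at 16 hpf, so the classes are also not alike between stages. The direction at 24 hpf turned when the motor neuron-like cluster was left out, and that of *nkx2.2a* at 44 hpf turned under 3 of 8 alternatives.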

How the results depend on the processing

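Of 105 comparisons of a main result with an alternative, 79 stayed within the limits set and 26 moved. The ratio of *nkx2.9* from 16 to 44 hpf was 0.260 as a mean over cells. The share of cells with any of the 5 genes at the stages in turn was 8.13%, 9.04% and 6.59% with 1000 UMIs drawn, 25.2%, 23.3% and 11.3% with all UMIs, and 4.18%, 5.57% and 4.0% with 2 UMIs needed, with 44 hpf lowest each time and 16 and 24 hpf in either order. At 24 hpf, where 0 genes were 2 times higher in progenitor-like cells and 3 were 2 times lower there, the counts were 2 and 1 with a higher resolution, 2 and 1 with the left-out genes used for clustering, and 4 and 0 without the motor neuron-like cluster. In these 3 settings *nkx2.2a* turned to ratios of 1.98, 1.65 and 9.65, the last with 3 UMIs taken as the floor. The ratios of *nkx2.2b* turned to 6.25, 3.95 and 23.7. Shares over all genes were not computed for these settings. At 44 hpf (2 and 1 genes), 1 was higher in progenitor-like cells with the left-out genes used, and 2, 3, 3 and 0 in differentiating cells with no removal of cells, a higher resolution, the left-out genes used and the motor neuron-like cluster left out. The genes higher in *nkx2* cells than in cells with neither at 24 hpf, 445, were 681 with 2 UMIs needed and 743 with groups from 2000 drawn UMIs. Of the 25 most similar genes, 15 remained with Spearman's correlation, 6 with the clusters of 16 hpf alone and 4 with those of 44 hpf alone. Of 105 values for single genes, 57 stayed, 42 moved and 6 reversed, and the cause was not tested beyond the change of cells. No paired analysis was possible because each stage is 1 library. Depth limits the last stage most, where 3 UMIs over the motor neuron-like cells are 14.3 CPM.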

Other observations

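Of 10 genes of serotonergic neurons and V3 interneurons, 5 had enough UMIs in progenitor-like and floor plate-like cells at 16 hpf, of which 2 were at least 2 times higher and 1 lower in *nkx2* cells than in cells with neither *nkx2* nor *nkx6*, beside 5.79% and 4.78% of all genes. Without the floor plate-like cells 1 of 5 was higher, and the share over all genes was not computed for this setting. The higher genes were *foxa2* and *lmx1bb*, a factor of serotonergic neurons, at 36.5 against 6.28 CPM for *lmx1bb* (ratio 5.81, 4.05 to 8.29). At 24 hpf *lmx1bb* was at 12.2 against 3.31 CPM (ratio 3.68, 1.63 to 7.75), and at 44 hpf it had 3 UMIs in *nkx2* cells (ratio 0.894, 0.179 to 2.76). Of the genes of the oligodendrocyte lineage, *olig2* alone was higher, at 24 and 44 hpf, while *sox10* and *plp1a* did not pass a ratio of 2 at any stage where they could be compared.

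Other genes of the NK2 and NK6 families had few UMIs in hindbrain cells, apart from *nkx6.3*. This gene had 0 UMIs at 16 hpf, 155 UMIs in 13 cells at 24 hpf and 286 UMIs in 32 cells at 44 hpf, of which 132 and 278 UMIs were in hindbrain cells, and it was among the leading genes of the V2-like cluster at 24 hpf. The genes *nkx2.5* and *nkx2.7*, known from heart and pharyngeal tissue, had 325 and 147 UMIs at 16 hpf, of which 12 and 11 were in hindbrain cells.

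In the gene order of RefSeq's GRCz12tu assembly, *nkx2.2a* lies near *nkx2.4a*, *pax1a* and *foxa2*. Hindbrain cells with an *nkx2.2a* UMI had *foxa2*, a floor plate factor, at 91.0 CPM at 16 hpf, 46.8 CPM at 24 hpf and 113 CPM at 44 hpf, against 5.87, 4.05 and 1.62 CPM in the other hindbrain cells. Between them *nkx2.4a* and *pax1a* had at most 1 UMI in *nkx2.2a* cells at any stage. Near *nkx6.1*, *gpat3* was at 16.8, 9.53 and 7.42 CPM in *nkx6.1* cells and at 7.11, 3.71 and 0.32 CPM in the others, the last from 2 UMIs, while *rpl17* was at 2498, 2614 and 2816 CPM against 2585, 2667 and 2579 CPM.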
